A study of Mus musculus with 11 samples.

Results

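Oxidative phosphorylation genes, which encode the complexes of the mitochondrial respiratory chain and the ATP synthase, were examined in mammary tumors with and without *Pcbp1*. Members were the protein-coding genes whose names begin with the symbols of complex I to complex V subunits, of cytochrome *c* or of the assembly factors that share these prefixes. The rule selected 107 of 26283 genes in the count table, of which 16314 are protein-coding. Of the members, 13 are encoded by the mitochondrial genome and 94 by the nucleus. After the filter on low counts, 101 of 107 members were tested, namely all 13 mitochondrial genes, 77 nuclear subunits and 11 nuclear assembly factors.

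The tumors came from C57BL/6 mice carrying the MMTV-PyMT oncogene, collected at 18 weeks of age. In 6 tumors (PyMT *Pcbp1*–/–) MMTV-Cre acted on floxed *Pcbp1* (fl/fl), and the 5 control tumors (PyMT *Pcbp1*+/+) carried MMTV-Cre as well, with *Pcbp1* wt/wt. Per the paper, this system removes *Pcbp1* selectively in mammary epithelial cells. The level of *Pcbp1* in each cell type of these tumors was not measured here. Libraries were stranded and poly(A)-enriched, and the labels place all of them in the same batch. Total counts per tumor ran from 11239931 to 14092192 in PyMT *Pcbp1*–/– and from 10543189 to 11411776 in PyMT *Pcbp1*+/+ tumors. Levels are given in deposited CPM, the counts scaled to the total of each library, for PyMT *Pcbp1*–/– (n = 6) as lowest, median and highest tumor and for PyMT *Pcbp1*+/+ (n = 5) as tumors 1 to 5. Means carry the SD, log2 fold changes are PyMT *Pcbp1*–/– over PyMT *Pcbp1*+/+ from edgeR with their SE, and p-values were adjusted over all 19232 genes tested.

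*Pcbp1* itself (ENSMUSG00000051695.6), which encodes a poly(C)-binding protein of RNA and single-stranded DNA, was measured first. Its levels were 15.4, 20.9 and 33.6 CPM in PyMT *Pcbp1*–/– and 268, 271, 225, 219.5 and 259 CPM in PyMT *Pcbp1*+/+ tumors (log2 fold change -3.43 ± 0.19, adjusted p = 4.72e-06). Each of the 6 knockout tumors lay far below each of the 5 controls, and a residual level was present in every knockout tumor.

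The respiratory chain passes electrons from NADH through complex I, or from succinate through complex II, to complex III, cytochrome *c* and complex IV, where oxygen is reduced. Complexes I, III and IV pump protons out of the mitochondrial matrix, and complex V, the ATP synthase, uses their return to make ATP. Complexes I, III, IV and V combine subunits from the mitochondrial and the nuclear genome, whereas complex II is nuclear-encoded throughout.

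Across the chain, members were more often higher than lower in PyMT *Pcbp1*–/– tumors, by small amounts. A positive log2 fold change was found for 76 of 101 members tested (75.2%), against 50.0% of all genes tested, and the members' median was 0.18 against -0.000 for all genes. The values ran from -0.40 for *Atp5j2* to 0.69 for *Ndufb6*. At an adjusted p under 0.05 by edgeR, 1 member rose, *mt-Nd6* (all genes: 0.608% higher), and 0 members fell (all genes: 1.66% lower). At an unadjusted p under 0.05, 26 members were higher (all genes: 8.19%) and 3 were lower (all genes: 10.5%), the latter being *Ndufb2*, *Atp5l* and *Atp5j2*. Nearly all of the 26 therefore missed the adjusted threshold. DESeq2 called 10 members higher (all genes: 2.53%) and 0 lower (all genes: 3.80%). limma-voom with sample quality weights called 14 higher (all genes: 5.03%) and 0 lower (all genes: 6.19%). Among changes of more than 2-fold with an unadjusted edgeR p below 0.001, 0 members were higher (all genes: 0.229%) and 0 lower (all genes: 0.572%). In CPM, the groups did not overlap for 7 members, all higher in PyMT *Pcbp1*–/– (all genes: 1.27% higher, 2.02% lower). These were *mt-Nd6*, *Ndufb6*, *Uqcrb*, *Cox7b*, *Atp5a1*, *Atp5b* and *Sdhaf4*. In bulk tumors, fewer cells of a type and less RNA per cell cannot be told apart.

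**Figure D1:**
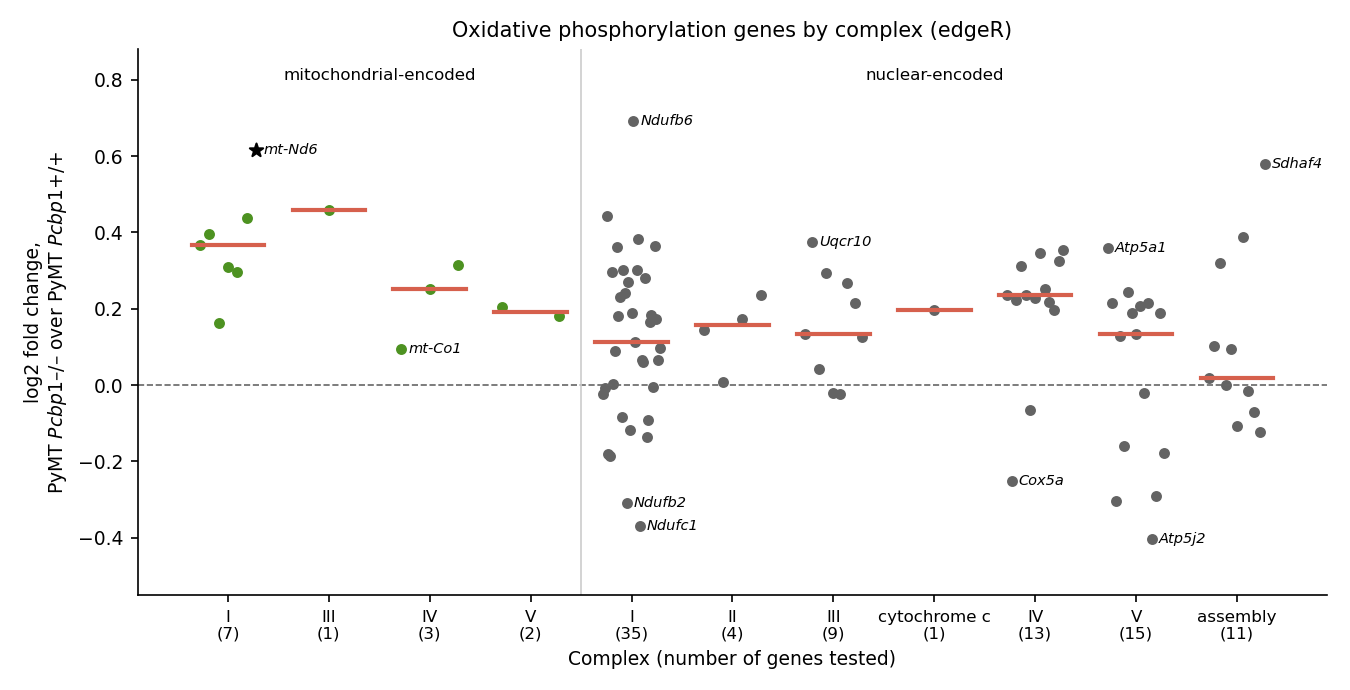
Log2 fold change (y axis, edgeR) of each member tested (points), by complex and genome of origin, with the group median (red line) and the number of genes in parentheses. All 13 mitochondrial genes lie above 0, and *mt-Nd6* (star) is the member with an adjusted p under 0.05. Nuclear genes of complexes I, III, IV and V and the assembly factors lie on both sides of 0.

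The 13 mitochondrial protein genes were all on the higher side, with a median log2 fold change of 0.31, from 0.09 for *mt-Co1* to 0.62 for *mt-Nd6*. All 13 kept a positive sign under each of the 20 alternative settings examined, although with single tumors left out *mt-Co1* ran from 0.00820 to 0.164, *mt-Atp8* from 0.0489 to 0.265, *mt-Nd3* from 0.0814 to 0.269, *mt-Atp6* from 0.106 to 0.267 and *mt-Nd4l* from 0.212 to 0.450. Their summed share of counts was 1.23, 1.55 and 1.60% in PyMT *Pcbp1*–/– and 1.02, 1.32, 1.18, 1.23 and 1.45% in PyMT *Pcbp1*+/+ tumors, a ratio of means of 1.21. Knockout tumor 1 was the low one of its group and lay among the controls, while the other knockout tumors were above every control. The 2 mitochondrial ribosomal RNA genes *mt-Rnr1* and *mt-Rnr2*, encoded at the start of the heavy-strand transcript that carries 12 of the 13, took 5.22, 5.45 and 6.63% and 4.02, 5.76, 4.32, 4.90 and 4.75% of counts. The ratio of mitochondrial protein-gene counts to these ribosomal RNA counts was 0.264 ± 0.0289 against 0.262 ± 0.0284, so it was about equal in the groups. Poly(A) enrichment retains part of the mitochondrial ribosomal RNA, and how evenly it did so in these tumors was not tested.

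*mt-Nd6* (ENSMUSG00000064368.1, M:13552-14070) is the only protein gene on the light-strand transcript and encodes a membrane subunit of complex I. It stood at 189, 224 and 251 CPM in PyMT *Pcbp1*–/– and 121, 136, 147, 152 and 177 CPM in PyMT *Pcbp1*+/+ tumors. Each knockout tumor was above each control, with knockout tumor 1 and control tumor 5 the closest. Its mean was 226 ± 22.5 against 147 ± 20.9 CPM, a ratio of means of 1.54 (log2 fold change 0.62 ± 0.13, adjusted p = 0.0297). As a share of all mitochondrial protein-gene counts, *mt-Nd6* made up 1.40, 1.52 and 1.62% against 1.18, 1.03, 1.25, 1.23 and 1.23%, again with no overlap. The call depended on the tumors included. The adjusted p was 0.0728 without knockout tumor 3, 0.0689 without knockout tumor 4, 0.0614 without knockout tumor 5 and 0.0520 without knockout tumor 6. It was 0.0559 without control tumor 1, 0.0578 without control tumor 3 and 0.0804 without control tumor 4. Without any of these 7 tumors edgeR thus called 0 members, with 19 to 22 higher and 1 to 4 lower at an unadjusted p under 0.05. Over all 20 alternatives *mt-Nd6* was called in 13, with log2 fold changes of 0.53 to 0.72 and adjusted p from 0.000308 to 0.0804. The gene overlaps *mt-Nd5* by 14 bases on the opposite strand. How strands were counted is not given in the sources used here, so reads of the heavy-strand transcript across *mt-Nd6* cannot be told apart from its own.

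The other complex I genes of the mitochondrial genome, all membrane subunits that carry out proton pumping, followed at smaller size. *mt-Nd5* (M:11742-13565) was at 1318, 1659 and 1768 CPM and 1039.8, 1107, 1131, 1247 and 1407 CPM (log2 fold change 0.44 ± 0.12, adjusted p = 0.0859). All knockout tumors but tumor 1 exceeded all controls. *mt-Nd1* (M:2751-3707) was at 1083, 1419 and 1472 CPM and 847, 989, 1058, 1069.8 and 1316 CPM (log2 fold change 0.37 ± 0.14, adjusted p = 0.191), and *mt-Nd2* (M:3914-4951) at 501, 686 and 735 CPM and 391, 402, 521, 489 and 687 CPM (log2 fold change 0.40 ± 0.17, adjusted p = 0.245). In both, control tumor 5 reached into the knockout range and knockout tumor 1 into the control range. *mt-Nd4* was at 754, 999 and 1046 CPM and 636, 719, 787, 756 and 967 CPM (log2 fold change 0.31 ± 0.14, adjusted p = 0.271), *mt-Nd4l* had a log2 fold change of 0.30 ± 0.15 and *mt-Nd3* one of 0.16 ± 0.14. The knockout values of *mt-Nd1*, *mt-Nd2*, *mt-Nd4* and *mt-Nd5* were all lowest in tumor 1. With all tumors, none of these passed the adjusted threshold in edgeR, while *mt-Nd5* was called by DESeq2 and limma-voom and *mt-Nd1* by limma-voom. Without control tumor 5, edgeR called *mt-Nd5* as well (adjusted p = 0.0370).

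*mt-Cytb* (M:14145-15288) encodes cytochrome *b*, the heme-bearing core of complex III. Its levels were 1619, 2074 and 2174 CPM and 1214, 1487, 1344, 1413 and 1758 CPM (log2 fold change 0.46 ± 0.13, adjusted p = 0.0955). It was higher in all knockout tumors but tumor 1 than in any control. With all tumors, it passed the threshold in DESeq2 and limma-voom but not in edgeR. Without control tumor 5, edgeR called *mt-Cytb* as well (adjusted p = 0.0383). The mitochondrial complex IV subunits had smaller log2 fold changes than *mt-Cytb*. *mt-Co1* (M:5328-6872), which carries the oxygen-reducing heme-copper center, was at 4385, 5357 and 5678 CPM and 3911, 5559, 4480.4, 4716 and 5435 CPM (log2 fold change 0.09 ± 0.14, adjusted p = 0.756), and the groups overlapped over most of their range. *mt-Co2*, which receives electrons from cytochrome *c*, was at 651, 801 and 844 CPM and 572, 790.4, 581, 643 and 672 CPM (log2 fold change 0.25 ± 0.11, adjusted p = 0.252). *mt-Co3* was at 848, 1063 and 1156 CPM and 707, 879, 791, 873 and 926 CPM (log2 fold change 0.32 ± 0.12, adjusted p = 0.182), with knockout tumor 1 inside the control range. Both *mt-Co2* and *mt-Co3* were called higher by limma-voom but not by edgeR or DESeq2. Complex V is represented by the proton-channel subunit gene *mt-Atp6*, at 740.3, 930.3 and 1084 CPM and 621, 945, 782, 785 and 889 CPM (log2 fold change 0.20 ± 0.14, adjusted p = 0.462), and by *mt-Atp8*, with a log2 fold change of 0.18 ± 0.17. Control tumor 2 was above the knockout median in *mt-Atp6*, *mt-Atp8* and *mt-Co1*.

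**Figure D2:**
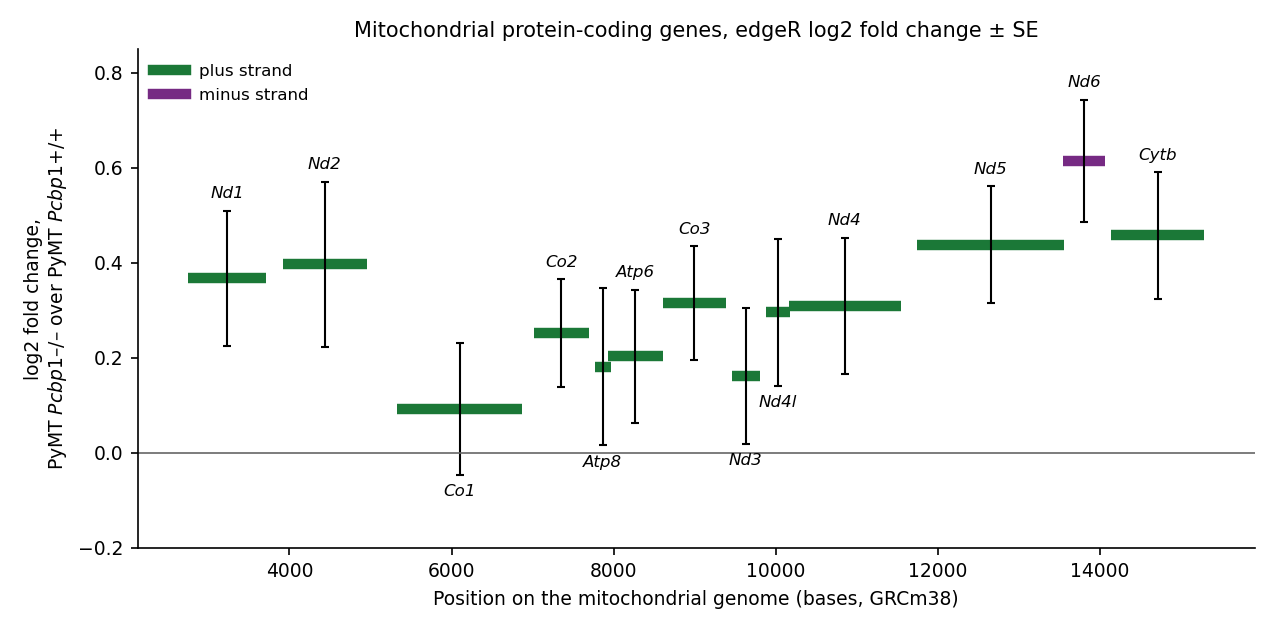
Log2 fold change (y axis, edgeR, bars ± SE) of the 13 mitochondrial protein genes drawn at their position in bases (x axis, GRCm38), with the plus strand in green and the minus strand in purple. The values run from 0.09 for *mt-Co1* to 0.62 for *mt-Nd6*, the gene on the minus strand.

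Along the mitochondrial genome, the higher values lay toward the end of the heavy-strand transcript (*mt-Nd5* and *mt-Cytb*) and near its start (*mt-Nd1* and *mt-Nd2*), and the lower ones between them (*mt-Co1*, *mt-Atp8*, *mt-Nd3*). Differences between these genes were not tested. Neighbors overlap by 43 bases for *mt-Atp8* and *mt-Atp6*, 7 for *mt-Nd4l* and *mt-Nd4* and 1 for *mt-Atp6* and *mt-Co3*, so their reads are in part shared. Per kilobase of transcript, the level in PyMT *Pcbp1*+/+ tumors was 3119.8 ± 443 CPM for *mt-Co1*, 1261 ± 177 for *mt-Cytb*, 1181 ± 182 for *mt-Atp6* and 1103 ± 178 for *mt-Nd1*. It was 283 ± 40.2 CPM per kilobase for *mt-Nd6* and 165 ± 23.5 for *mt-Nd3*, the lowest of the 13. *mt-Co1* thus stood above the others per length, and the order of *mt-Cytb*, *mt-Atp6* and *mt-Nd1* did not differ beyond their spread.

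In sum, though not gene by gene, nuclear-encoded members were higher in every knockout tumor than in any control. Their summed share of counts was 0.151, 0.155 and 0.163% in PyMT *Pcbp1*–/– and 0.141, 0.146, 0.126, 0.143 and 0.141% in PyMT *Pcbp1*+/+ tumors, a ratio of means of 1.12. The gap was small, and control tumor 3 stood lowest. A sum is weighted toward the abundant genes, and the median log2 CPM of nuclear subunits relative to the control mean overlapped between groups, at 0.0702 in knockout tumor 1 against 0.112 in control tumor 5. Control tumor 3 also had the highest share of the 18S ribosomal RNA gene *Rn18s-rs5*, at 8.72% of counts, against 0.263, 0.533 and 2.99% in the knockout group and 0.397, 1.84, 1.79 and 1.35% in the other controls. As a share of nuclear protein-coding counts only, nuclear members made up 0.273, 0.289 and 0.302% and 0.233, 0.263, 0.249, 0.247 and 0.267%, still with no overlap. On the same base, the mitochondrial genes took 2.21, 2.90 and 3.08% and 1.69, 2.38, 2.34, 2.13 and 2.75%, and the groups overlapped. Of 77 nuclear subunits tested, 56 were positive, with a median of 0.18. By edgeR 0 passed the adjusted threshold in either direction (all genes: 0.608% higher, 1.66% lower). At an unadjusted p under 0.05, 18 were higher (23.4%, all genes: 8.19%) and 3 lower (3.90%, all genes: 10.5%). DESeq2 called 7 higher (all genes: 2.53%) and 0 lower (all genes: 3.80%). limma-voom called 8 higher (all genes: 5.03%) and 0 lower (all genes: 6.19%). These shares of all genes also apply to the counts by complex and by list below.

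Complex I has the most nuclear subunits. Of 35 tested, 24 were positive and the median was 0.11. The median ranged from 0.09 without knockout tumor 2 to 0.19 without control tumor 5. By edgeR 0 were called, and 4 were higher (11.4%, all genes: 8.19%) and 1 lower (2.86%, all genes: 10.5%) at an unadjusted p under 0.05. The share of higher genes was thus near that of all genes. DESeq2 (all genes: 2.53% higher) and limma-voom (all genes: 5.03% higher) each called 2 higher and 0 lower. The summed level was 358, 369 and 402 CPM and 338, 363, 315, 367 and 356 CPM, with overlapping groups. The core subunits named here lay near 0 or slightly to either side of it. *Ndufv1*, which binds the flavin that accepts electrons from NADH, had 16.8 ± 1.35 against 14.9 ± 2.33 CPM (log2 fold change 0.17 ± 0.12) and *Ndufs1*, the largest iron-sulfur subunit, 20.3 ± 2.26 against 19.4 ± 1.83 CPM (0.06 ± 0.09). The counts of *Ndufs1* were not whole numbers in any tumor, and it overlaps *Ino80dos* on the opposite strand by 14695 bases. Its assignment of reads is therefore uncertain. *Ndufs3* had 3.37 ± 0.519 against 3.72 ± 0.745 CPM (-0.14 ± 0.17) and *Ndufs7* 5.16 ± 0.526 against 5.14 ± 0.767 CPM (-0.00 ± 0.15). None of these core subunits had an adjusted p under 0.05 in edgeR, DESeq2 or limma-voom.

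The accessory subunits of complex I spread more widely. *Ndufb6* (ENSMUSG00000071014.10, chr4:40270591-40279421), a membrane-arm subunit, was at 7.08, 8.05 and 9.91 CPM and 4.31, 6.18, 3.86, 4.23 and 6.73 CPM (log2 fold change 0.69 ± 0.18, adjusted p = 0.0634). The groups did not overlap, although control tumors 2 and 5 came close to the lowest knockout tumor. Its call changed with a tumor left out, since the adjusted p was 0.04998 without control tumor 2 and 0.0222 without control tumor 5, both called, against a range of 0.00503 to 0.139 over the 20 alternatives. *Ndufb6* had no whole-number counts in any of the 11 tumors and overlaps *Toporsos* on the opposite strand by 350 bases, so its assignment of reads is uncertain. *Ndufa11*, another membrane-arm subunit, was at 6.03, 7.91 and 8.52 CPM and 5.76, 4.84, 5.17, 6.74 and 5.80 CPM (log2 fold change 0.44 ± 0.13, adjusted p = 0.0924). Knockout tumor 6 fell inside the control range, and the other knockout tumors were above all controls. In the opposite direction, *Ndufb2* was at 10.2, 12.8 and 14.4 CPM and 16.5, 17.9, 13, 16.8 and 15.2 CPM (log2 fold change -0.31 ± 0.11, adjusted p = 0.148), and *Ndufc1* at 0.712, 1.15 and 2.10 CPM and 1.83, 1.52, 1.40, 2.00 and 1.43 CPM (log2 fold change -0.37 ± 0.28, adjusted p = 0.509). For *Ndufb2* control tumors 1, 2, 4 and 5 were above all knockout tumors and control tumor 3 among them, whereas for *Ndufc1* the groups overlapped and knockout tumor 2 was highest. With single tumors left out the log2 fold change of *Ndufc1* ran from -0.56 to -0.25.

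Complex II, succinate dehydrogenase, links the citric acid cycle to the chain. All 4 subunits were positive, with a median of 0.16. None was called by edgeR (0 in either direction), and DESeq2 and limma-voom each called *Sdhd* alone. At an unadjusted p under 0.05, 2 were higher (all genes: 8.19%) and 0 lower (all genes: 10.5%). *Sdhd*, a membrane anchor, was at 38.9, 44.7 and 48.1 CPM and 39.5, 40.3, 33.6, 39.6 and 36.3 CPM (log2 fold change 0.24 ± 0.08, adjusted p = 0.142). Knockout tumor 1 lay among the controls and the other knockout tumors above them. The flavoprotein gene *Sdha* had 42.4 ± 1.34 against 38.4 ± 2.72 CPM (log2 fold change 0.14 ± 0.07, adjusted p = 0.263) and the other anchor *Sdhc* 44.8 ± 3.27 against 39.8 ± 5.45 CPM (log2 fold change 0.17 ± 0.09, adjusted p = 0.317). The iron-sulfur subunit gene *Sdhb* was at 1.78, 2.44 and 3.59 CPM and 2.01, 2.85, 2.80, 2.19 and 2.68 CPM (log2 fold change 0.01 ± 0.22, adjusted p = 0.992). Its groups were intermixed, and its sign turned under some settings.

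Complex III passes electrons from ubiquinol to cytochrome *c*. Of 9 nuclear subunits, 7 were positive, with a median of 0.13, which was 0.05 without control tumor 1, 0.08 without knockout tumor 5 and 0.21 without control tumor 2. No call (0) was made by edgeR, and DESeq2 and limma-voom each called *Uqcrfs1* higher and 0 lower. At an unadjusted p under 0.05, 4 were higher (44.4%, all genes: 8.19%) and 0 lower (all genes: 10.5%). *Uqcrfs1*, the Rieske iron-sulfur protein, was at 64.4, 76.6 and 80.2 CPM and 68.9, 64.4, 58.8, 59.0 and 60.5 CPM (log2 fold change 0.27 ± 0.08, adjusted p = 0.105). Again knockout tumor 1 sat with the controls. *Uqcrb* was at 10.2, 10.5 and 11.2 CPM and 9.68, 6.64, 9.46, 9.84 and 7.59 CPM (log2 fold change 0.29 ± 0.12, adjusted p = 0.203), with no overlap but a narrow gap, and the small subunit gene *Uqcr10* at 18.1, 27.6 and 33.4 CPM and 20.2, 18.7, 16.3, 24.5 and 23.4 CPM (log2 fold change 0.37 ± 0.16, adjusted p = 0.221). The core protein gene *Uqcrc2* was at 9.93, 10.8 and 12.0 CPM and 9.87, 11.5, 8.62, 13.5 and 11.9 CPM (log2 fold change -0.02 ± 0.12, adjusted p = 0.934), so it was level between groups, and its counts were not whole numbers in any tumor. The electron carriers *Cyc1*, cytochrome *c*1, and *Cycs*, cytochrome *c*, had 21.6 ± 2.28 against 19.6 ± 3.03 CPM (log2 fold change 0.13 ± 0.13) and 12.4 ± 1.37 against 10.8 ± 1.17 CPM (0.20 ± 0.12), with overlapping groups.

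The nuclear subunits of complex IV, which surround its catalytic core, were nearly all on the higher side. Of 13 tested, 11 were positive, with a median of 0.24 (0.21 to 0.26 when single tumors were omitted). The summed level was 256, 267 and 285 CPM and 235, 232, 198, 231 and 231 CPM, and every knockout tumor exceeded every control. Called by edgeR were 0 genes, and 5 were higher (38.5%, all genes: 8.19%) and 0 lower (all genes: 10.5%) at an unadjusted p under 0.05. DESeq2 called *Cox6a1* higher, limma-voom called *Cox6a1* and *Cox7a2l* higher, and both called 0 lower. *Cox6a1* was at 28.1, 32.9 and 41.9 CPM and 29.1, 27.2, 24.9, 28.6 and 25.4 CPM (log2 fold change 0.31 ± 0.09, adjusted p = 0.0969), *Cox7b* at 10.8, 11.3 and 13.6 CPM and 9.87, 10.3, 9.11, 10.1 and 10.4 CPM (log2 fold change 0.25 ± 0.10, adjusted p = 0.193). For *Cox7b* the groups were separate, and for *Cox6a1* knockout tumor 6 was below control tumors 1 and 4. *Cox7a2l*, whose product has been linked to supercomplexes of complexes III and IV, was at 72.1, 86.2 and 106 CPM and 72.9, 70.5, 56.4, 67.2 and 78.9 CPM (log2 fold change 0.35 ± 0.13, adjusted p = 0.169), with knockout tumors 3 and 5 the highest. *Cox4i1*, the common form of subunit 4, had 30.7 ± 2.75 against 26.0 ± 2.89 CPM (log2 fold change 0.24 ± 0.09, adjusted p = 0.192). *Cox5a* was on the lower side at 0.979, 1.48 and 2.56 CPM and 1.46, 2.66, 2.10, 1.55 and 1.52 CPM (log2 fold change -0.25 ± 0.29, adjusted p = 0.677), at low counts and with intermixed groups, and its log2 fold change ran from -0.43 to -0.09 with single tumors left out. *Ndufa4* and *Ndufa4l2*, named after complex I but placed with complex IV, had 3.79 ± 0.854 against 3.01 ± 0.364 CPM (log2 fold change 0.32 ± 0.20) and 1.36 ± 0.343 against 1.06 ± 0.501 CPM (0.36 ± 0.31). That of *Ndufa4l2* ran from 0.20 to 0.62 with single tumors left out.

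Complex V was split. Of 15 nuclear subunits tested, 9 were positive and 6 negative, with a median of 0.13 (0.10 to 0.20 when single tumors were omitted). The summed level was 453, 472 and 510.1 CPM and 430.1, 452, 383, 417 and 431 CPM, separate by a gap of under 1 CPM between knockout tumor 6 and control tumor 2. With edgeR 0 genes passed the adjusted threshold, and DESeq2 and limma-voom each called *Atp5a1* and *Atp5b* higher and 0 lower. At an unadjusted p under 0.05, 3 were higher (20.0%, all genes: 8.19%) and 2 lower (13.3%, all genes: 10.5%). The catalytic head carries these 2 subunits. *Atp5a1* (ENSMUSG00000025428.15, chr18:77773729-77782869), the alpha subunit, was at 54.8, 59.1 and 68.5 CPM and 51.3, 42.9, 41.4, 46.8 and 50.5 CPM (log2 fold change 0.36 ± 0.09, adjusted p = 0.0621). It was called by edgeR when control tumor 5 was left out (adjusted p = 0.0410), within a range of 0.00587 to 0.137 over the 20 alternatives. *Atp5b*, the beta subunit that makes ATP, was at 180.3, 192 and 199 CPM and 169, 177, 152, 167 and 159 CPM (log2 fold change 0.21 ± 0.07, adjusted p = 0.118). Both genes were higher in each knockout tumor than in each control. Of the membrane-part genes, *Atp5j2* and *Atp5l* were on the lower side, at 3.02, 4.91 and 5.62 CPM and 5.66, 8.16, 5.69, 5.92 and 5.54 CPM (log2 fold change -0.40 ± 0.18, adjusted p = 0.256), and 12.3, 15.7 and 20.1 CPM and 20.6, 22.2, 20.0, 19.6 and 16.5 CPM (log2 fold change -0.29 ± 0.12, adjusted p = 0.219). In *Atp5j2* control tumor 2 stood apart as the highest, and in both genes the groups overlapped. The membrane part did not share one direction, since the 3 genes of its proton-carrying ring were on the higher side, *Atp5g3* at 27.0 ± 2.14 against 23.3 ± 1.86 CPM (log2 fold change 0.21 ± 0.09, adjusted p = 0.223), *Atp5g1* with a log2 fold change of 0.19 ± 0.14 and *Atp5g2* with one of 0.13 ± 0.16. The gamma subunit gene *Atp5c1*, the rotating shaft, had 4.34 ± 0.935 against 5.32 ± 0.709 CPM (log2 fold change -0.30 ± 0.18).

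**Figure D3:**
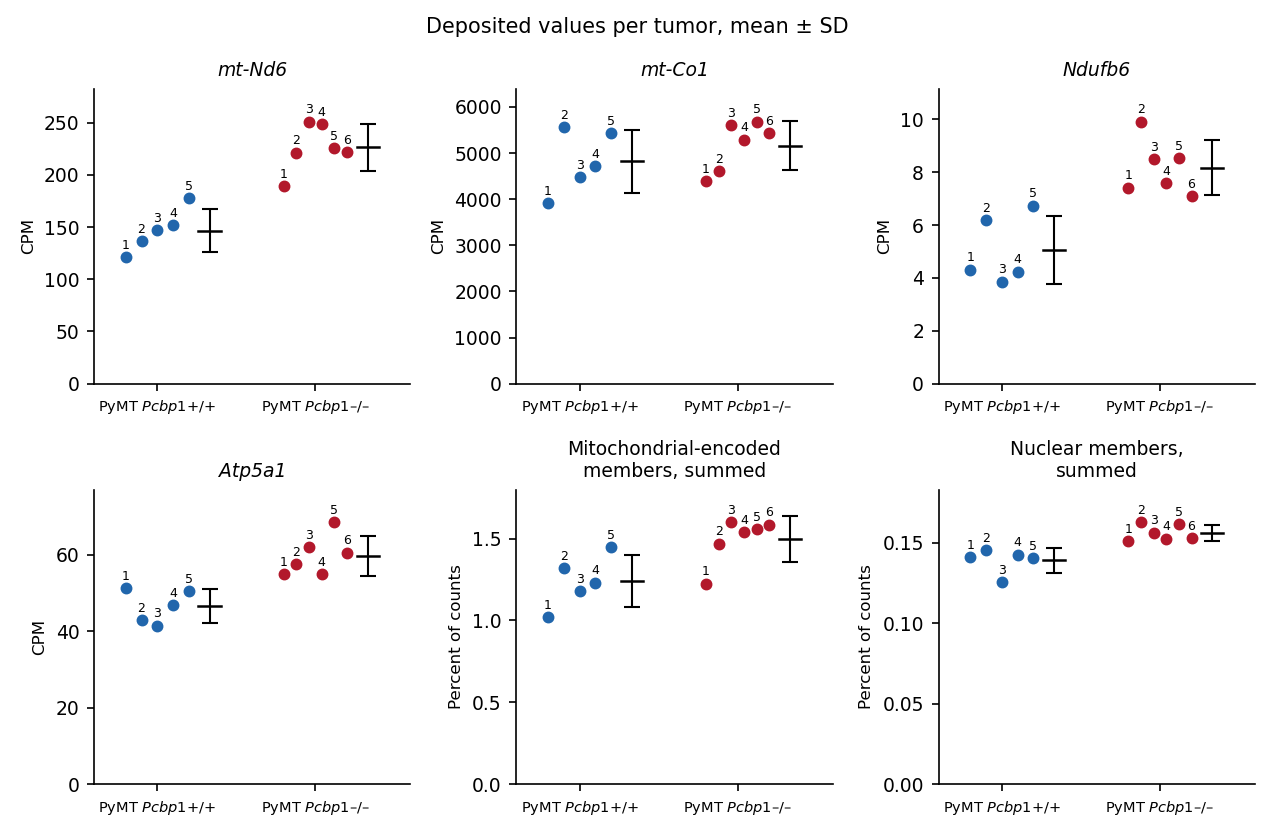
Level of 4 members in CPM and summed share of mitochondrial and nuclear members in percent of counts (y axes) in each PyMT *Pcbp1*+/+ (blue, n = 5) and PyMT *Pcbp1*–/– (red, n = 6) tumor, numbered by replicate, with mean and SD to the right. The groups are separate for *mt-Nd6*, *Ndufb6*, *Atp5a1* and the nuclear sum, and overlap for *mt-Co1* and the mitochondrial sum.

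Assembly factors, which help build complexes I and II but are not part of them, were spread around 0. Of 11 tested, 7 were positive, with a median of 0.02 (0.02 to 0.10 under the other tools and scalings). By edgeR 0 were called, with 0 in either direction by DESeq2 and limma-voom. At an unadjusted p under 0.05, 1 was higher (9.09%, all genes: 8.19%) and 0 lower (all genes: 10.5%). The 1 gene was *Sdhaf4*, which assists maturation of *Sdha*, at 3.41, 3.83 and 5.72 CPM and 3.11, 2.09, 2.72, 3.28 and 2.41 CPM (log2 fold change 0.58 ± 0.18, adjusted p = 0.110). Its groups did not overlap, and knockout tumor 1 stood highest. The 6 members below the filter were *Ndufa5*, *Cox4i2*, *Cox6b2*, *Cox8b*, *Atp5k* and *Ndufaf6*. *Atp5k* was at 0.150, 0.275 and 0.366 CPM and 0.365, 1.04, 0.613, 0.456 and 0.714 CPM. Its knockout values were near the floor of 0.213 to 0.285 CPM that 3 counts give at these depths, and each control was above that floor. The muscle-type *Cox8b* and the lung-type *Cox4i2* were at 0 in some tumors of each group, and the testis-type *Cox6b2* was at 3.60 CPM in control tumor 2 and at most 1.05 CPM elsewhere. The complex I subunit gene *Ndufa5* was at 0 in knockout tumor 1 and control tumor 1 and at most 0.759 CPM elsewhere, and the assembly factor gene *Ndufaf6* had 0.810 ± 0.293 against 0.763 ± 0.286 CPM. Of a list of 8 tissue-specific isoforms, 1 was tested (*Ndufa4l2*), 3 were below the filter and 4 were not among the genes of the table.

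Per kilobase of transcript, the most abundant nuclear members in PyMT *Pcbp1*+/+ tumors were *Atp5b* (85.6 ± 4.98 CPM), *Cox8a* (64.5 ± 5.55 CPM), *Cox7a2l* (55.3 ± 6.66 CPM), *Cox6a1* (47.4 ± 3.32 CPM) and *Uqcr10* (46.0 ± 7.53 CPM). *Cox6a1* and *Uqcr10* did not differ beyond their spread. Each mitochondrial gene stood above all of them per length. *Sdhb* and *Cox5a* were among the low subunits, at 0.622 and 2.62 CPM per kilobase. Nuclear members are genes of short exons, with a median longest exon of 569.5 bases against 1802 for protein-coding genes tested. Reads were aligned to GRCm38 with an aligner that does not split them across introns, and how they were counted is not given in the sources used here. Levels per length are uncertain to that extent. Pseudogenes also held counts. *Atp5k-ps2* had 2.02 ± 0.353 against 1.87 ± 0.696 CPM, above its parent *Atp5k* at 0.272 ± 0.0713 against 0.638 ± 0.264 CPM, and the pseudogene *RP23-383D12.6*, which overlaps *Uqcrh* by 297 bases, had means of 59.6 and 53.0 CPM, while *Uqcrh* had 15.1 ± 1.27 against 13 ± 1.36 CPM. Of 94 nuclear members, 29 overlap another annotated gene, all 29 on the opposite strand, and with the strand setting not given these assignments are uncertain. Of these, 2 also overlap a gene on the same strand, *Cox4i1* over 5986 bases and *Ndufa13* over 8379 bases, which a strand setting would not settle. The deposited counts were whole numbers within 0.001 in all 11 tumors for 83 of 101 members tested (82.2%), against 71.6% of genes tested.

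Promoters of nuclear members were compared because many nuclear respiratory genes are known targets of NRF1, GABP and YY1. RefSeq promoters (GRCm38.p6, 250 bases before to 50 after the start) were matched for 79 of 94 nuclear members, giving 85 promoters. An NRF1-type motif, GCGCANGCG, was found on either strand in 26 of 85 (30.6%), against 6.25% of 32851 promoters of all genes. An ETS/GABP-type motif, CCGGAAG, was in 20 (23.5%, against 8.86%) and a YY1-type motif, AAGATGGCG, in 9 (10.6%, against 1.40%). Any of these 3 motifs was in 46 of 85 (54.1%, against 14.8%). A match of letters is a description and does not show binding. The sequences shown are 4 of the 7 nuclear subunits called higher by DESeq2, chosen because they hold at least 1 motif, whereas *Atp5b* and *Uqcrfs1* hold none of these letters in this window and *Atp5a1* was not matched. Motifs are in capitals, read on either strand, 5′ to 3′ along the gene's own strand. *Cox6a1* (chr5:115348909-115349208, minus strand) holds 3 NRF1-type matches, the first pair being the overlapping readings of a palindrome on both strands, and 1 ETS/GABP-type match. *Ndufa11* (chr17:56717512-56717811, plus strand) holds a single NRF1-type palindrome that matches on both strands. *Sdhd* (chr9:50603800-50604099, minus strand) holds 1 NRF1-type and 1 ETS/GABP-type match, and *Ndufb6* (chr4:40279372-40279671, minus strand) 1 ETS/GABP-type match.
Cox6a1: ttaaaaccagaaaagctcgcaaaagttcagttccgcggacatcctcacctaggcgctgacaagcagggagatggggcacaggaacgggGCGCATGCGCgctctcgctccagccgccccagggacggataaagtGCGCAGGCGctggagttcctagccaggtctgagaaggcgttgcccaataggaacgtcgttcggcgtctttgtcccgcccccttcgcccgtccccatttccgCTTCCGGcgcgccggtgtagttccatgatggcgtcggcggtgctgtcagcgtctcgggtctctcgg
Ndufa11: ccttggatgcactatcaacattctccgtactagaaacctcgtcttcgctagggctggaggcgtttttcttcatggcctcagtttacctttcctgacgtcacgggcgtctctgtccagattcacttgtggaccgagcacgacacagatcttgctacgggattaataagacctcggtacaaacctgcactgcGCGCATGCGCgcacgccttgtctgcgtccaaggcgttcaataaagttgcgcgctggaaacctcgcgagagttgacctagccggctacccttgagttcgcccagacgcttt
Sdhd: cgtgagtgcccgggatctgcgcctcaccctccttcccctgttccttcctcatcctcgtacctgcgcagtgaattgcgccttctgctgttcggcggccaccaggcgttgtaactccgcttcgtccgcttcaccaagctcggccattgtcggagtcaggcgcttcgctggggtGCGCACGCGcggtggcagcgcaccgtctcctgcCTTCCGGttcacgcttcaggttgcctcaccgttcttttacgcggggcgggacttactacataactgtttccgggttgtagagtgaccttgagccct
Ndufb6: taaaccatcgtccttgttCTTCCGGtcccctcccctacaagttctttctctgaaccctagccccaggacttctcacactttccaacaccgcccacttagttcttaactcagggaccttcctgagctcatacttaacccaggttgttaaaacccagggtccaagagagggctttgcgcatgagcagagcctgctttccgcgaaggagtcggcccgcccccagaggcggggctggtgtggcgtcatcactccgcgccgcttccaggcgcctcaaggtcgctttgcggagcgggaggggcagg

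Regulators of nuclear respiratory genes did not pass the test. Of 19 regulators of mitochondrial biogenesis, 10 were positive, with a median of 0.03, and 0 were called by edgeR, DESeq2 or limma-voom. At an unadjusted p under 0.05, 0 were higher (all genes: 8.19%) and 1 was lower (5.26%, all genes: 10.5%). *Nrf1* had 24.5 ± 2.18 against 27.2 ± 2.39 CPM (log2 fold change -0.16 ± 0.09, adjusted p = 0.395), *Gabpa* 59.0 ± 9.28 against 54.0 ± 7.06 CPM (log2 fold change 0.12 ± 0.14, adjusted p = 0.662) and *Yy1* 112 ± 9.22 against 108 ± 7.33 CPM (log2 fold change 0.05 ± 0.08, adjusted p = 0.758). *Ppargc1a*, a coactivator of mitochondrial genes, had 6.05 ± 1.59 against 4.67 ± 1.83 CPM (log2 fold change 0.36 ± 0.28, adjusted p = 0.512), and its relative *Ppargc1b*, the 1 lower gene, 3.95 ± 0.681 against 5.13 ± 0.842 CPM (log2 fold change -0.38 ± 0.16, adjusted p = 0.235). Genes that transcribe, process and translate mitochondrial RNA numbered 35 tested, 14 of them positive, with a median of -0.01 (-0.02 to 0.05 under the other tools and scalings). By edgeR 0 were called. At an unadjusted p under 0.05, 2 were higher (5.71%, all genes: 8.19%) and 0 lower (all genes: 10.5%). The 2 were *Polrmt*, the mitochondrial RNA polymerase, and *Tfb1m*. DESeq2 called 0 and limma-voom called *Tufm* higher and *Gfm2* lower. *Polrmt* had 23.1 ± 3.60 against 18.9 ± 2.51 CPM (log2 fold change 0.28 ± 0.13, adjusted p = 0.250), and *Tfam*, which packages mitochondrial DNA, 22.3 ± 1.03 against 20.0 ± 2.80 CPM (log2 fold change 0.16 ± 0.08, adjusted p = 0.327). Of 76 mitochondrial ribosomal protein genes tested, 53 were positive, with a median of 0.10 (0.10 to 0.15 under the other tools and scalings). None was called by edgeR (0 in either direction), and 10 were higher (13.2%, all genes: 8.19%) and 2 lower (2.63%, all genes: 10.5%) at an unadjusted p under 0.05. DESeq2 called 0, and limma-voom called 5 higher (all genes: 5.03%) and 0 lower (all genes: 6.19%).

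Neighboring mitochondrial pathways were mixed. Of 19 citric acid cycle genes, 10 were positive, with a median of 0.04, and 1 fell. That gene was *Idh2* (ENSMUSG00000030541.16), the mitochondrial NADP-dependent isocitrate dehydrogenase, at 14.6, 16.1 and 18.2 CPM and 25.8, 23.6, 19.7, 26.0 and 24.2 CPM (log2 fold change -0.56 ± 0.09, adjusted p = 0.00742). Each knockout tumor was below each control, and *Idh2* was called under all 20 alternatives. Of 31 genes of protein import and mitochondrial mass, 24 were positive, with a median of 0.09 (0.09 to 0.15 under the other tools and scalings). No call (0) was made by edgeR, and 4 were higher (12.9%, all genes: 8.19%) and 0 lower (all genes: 10.5%) at an unadjusted p under 0.05. DESeq2 called *Tomm22* and *Timm17b* higher (all genes: 2.53%), and limma-voom called 4 higher (all genes: 5.03%), with 0 lower in both. Among 40 assembly factors outside the naming rule, 23 were positive, with a median of 0.04 (0.03 to 0.10 under the other tools and scalings). Called by edgeR were 0 genes, and 4 were higher (10.0%, all genes: 8.19%) and 1 lower (2.5%, all genes: 10.5%) at an unadjusted p under 0.05. DESeq2 called 0, and limma-voom called *Uqcc2*, an assembly factor of complex III, higher. *Uqcc2* was at 2.05, 2.61 and 4.26 CPM and 1.74, 1.71, 1.93, 1.55 and 1.61 CPM (log2 fold change 0.75 ± 0.22, adjusted p = 0.0969), with no overlap.

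PCBP1 is also known as a chaperone that delivers iron, and complexes I to IV depend on iron-sulfur clusters and heme. Of 13 members that bear iron, 12 were positive, with a median of 0.17. With edgeR 0 genes passed the adjusted threshold, and 3 were higher (23.1%, all genes: 8.19%) and 0 lower (all genes: 10.5%) at an unadjusted p under 0.05. DESeq2 and limma-voom each called *Sdhd*, *Uqcrfs1* and *mt-Cytb* higher and 0 lower. The 26 genes that build iron-sulfur clusters and heme differed in sign, with 11 positive and a median of -0.12. By edgeR 0 were called, and 2 were higher (7.69%, all genes: 8.19%) and 4 lower (15.4%, all genes: 10.5%) at an unadjusted p under 0.05. DESeq2 and limma-voom each called *Alas1* and *Ppox* lower and 0 higher. *Alas1*, the first enzyme of heme synthesis, was at 14.4, 17.7 and 21.4 CPM and 23.5, 19.3, 26.8, 28.6 and 22.9 CPM (log2 fold change -0.46 ± 0.13, adjusted p = 0.0963). Knockout tumors 1 and 2 were above control tumor 2, so the groups overlapped. *Ppox*, a late enzyme of the same route, had 25.4 ± 3.20 against 32.9 ± 5.10 CPM (log2 fold change -0.37 ± 0.11, adjusted p = 0.105). The median of the synthesis genes lay between -0.12 and -0.01 under the other tools and scalings.

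Markers of cell types and of division were measured in the same tumors. Genes of dividing cells were on the higher side too. All 20 were positive, with a median of 0.43, and by edgeR 0 were called. At an unadjusted p under 0.05, 11 were higher (55.0%, all genes: 8.19%) and 0 lower (all genes: 10.5%). DESeq2 called 8 (all genes: 2.53%) and limma-voom 12 (all genes: 5.03%) higher, and both called 0 lower. Their summed level was 604, 862 and 897 CPM in PyMT *Pcbp1*–/– and 435, 717, 561, 673 and 619.9 CPM in PyMT *Pcbp1*+/+ tumors, with knockout tumor 1, which was also low in mitochondrial genes, inside the control range. The most abundant was *Mki67* at 449 ± 67.5 against 320.0 ± 52.9 CPM (log2 fold change 0.49 ± 0.14, adjusted p = 0.101), and 0 of these markers were at 0 in any tumor. Their part in the result was not tested. Of 18 luminal epithelial markers, 6 were positive with a median of -0.04, and 0 were called by edgeR. At an unadjusted p under 0.05, 0 were higher (all genes: 8.19%) and 1, *Muc1*, was lower (5.56%, all genes: 10.5%). DESeq2 and limma-voom each called *Muc1* lower. Their sum was 2022, 3405 and 3740.0 CPM and 3692, 2553, 2921, 3563 and 3352 CPM, led by *Ehf* at 546 ± 161 against 555 ± 118 CPM, and *Csn2*, a milk protein gene, was at 0 in at least 1 tumor. Knockout tumor 1 had the lowest luminal sum.

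Muscle and fat, which are rich in mitochondria or lie beside the mammary gland, were uneven between tumors of both groups. Of 15 skeletal muscle markers, 2 passed the filter and both were positive, with a median of 0.37 (0.37 to 1.48 under the other tools and scalings). There was no call by any tool and 0 were at an unadjusted p under 0.05. The 15 markers summed to 23.2, 54.0 and 191 CPM and 46.0, 16.8, 12.6, 16.1 and 265 CPM, with control tumor 5 highest. The most abundant was *Ttn* at 71.3 ± 56.3 against 61.0 ± 90.8 CPM, and 12 of 15 were at 0 in at least 1 tumor, among them *Ckm*, *Myh4* and *Atp2a1*. Of 14 adipocyte markers, 10 were tested and 0 were positive, with a median of -0.80 (-1.74 to -0.73 under the other tools and scalings), no call by edgeR or DESeq2, 0 at an unadjusted p under 0.05 and 1 lower, *Plin4*, by limma-voom. Their sum was 15.4, 40.7 and 137 CPM and 56.4, 25.1, 271, 74.4 and 57.2 CPM, with control tumor 3 highest. The most abundant was *Lpl* at 17.1 ± 14.5 against 22.8 ± 18.5 CPM, and *Adipoq*, *Cidea*, *Cidec*, *Retn* and *Ucp1* were at 0 in at least 1 tumor. High values of either list came from a few tumors of both groups, and their part in the result was not tested.

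Stromal and immune markers showed few calls. Of 10 fibroblast markers 8 were positive, with a median of 0.15 and a sum of 513, 816 and 1148 CPM and 564, 670.0, 871, 916 and 492 CPM, led by *Col1a1* at 190.0 ± 35.6 against 167 ± 43.4 CPM. All 9 endothelial markers were negative, with a median of -0.15 and a sum of 70.9, 80.6 and 124 CPM and 93.6, 108, 104, 123 and 73.3 CPM, led by *Cdh5* at 21.7 ± 7.83 against 25.6 ± 6.31 CPM. In neither list was a gene called by edgeR, DESeq2 or limma-voom or below an unadjusted p of 0.05. Of 9 basal markers 4 were positive, with a median of -0.04 and a sum of 173, 525 and 664 CPM and 1246, 421, 422, 455 and 146 CPM, led by *Mylk* at 144 ± 59.3 against 131 ± 121 CPM. By edgeR, DESeq2 and limma-voom 0 basal markers were called, and *Krt14* alone was lower at an unadjusted p under 0.05 (11.1%, all genes: 10.5%). Of 10 macrophage markers 8 were positive, with a median of 0.21 and a sum of 416, 524 and 669 CPM and 678, 497, 534, 429 and 321 CPM. *Lyz2*, the most abundant, was at 141, 194 and 241 CPM and 123, 49.1, 150.4, 81.5 and 68.6 CPM (log2 fold change 1.02 ± 0.26, adjusted p = 0.0657), and was called higher by DESeq2 and limma-voom. *Cd14* was at 64.7, 77.1 and 102 CPM and 309.5, 282, 97.3, 117 and 125 CPM (log2 fold change -1.19 ± 0.28, adjusted p = 0.0481), and was called in 6 of 20 alternatives. Control tumors 1 and 2 were far above all other tumors in *Cd14*, and the remaining controls were near the knockout range. T cell markers were low, with 4 of 9 tested, 1 positive, 0 called by any tool and 0 at an unadjusted p under 0.05. Their sum was 4.27, 7.14 and 10.3 CPM and 10.6, 6.64, 8.94, 11.1 and 3.84 CPM, led by *Cd8a* at 2.17 ± 0.968 against 2.57 ± 1.67 CPM, and *Cd2*, *Cd3d* and *Cd8b1* were at 0 in at least 1 tumor. B cell markers were below the filter or not among the genes of the table, and their sum was 0.534, 1.35 and 3.12 CPM and 1.74, 0.759, 1.01, 1.00 and 0.536 CPM. Under the other tools and scalings the median ran from -0.04 to 0.16 for fibroblast, -0.08 to 0.15 for basal, -0.07 to 0.22 for macrophage and -0.11 to 0.04 for T cell markers, so these changed sign. It ran from -0.32 to -0.15 for endothelial markers. The part of these cells in the members' levels was not tested.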

How the data were processed

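Bulk RNA-seq of 11 mammary tumors was analysed from the deposited table of estimated counts, which per the labels the authors made with Bowtie2 and Partek on GRCm38, and from the deposited CPM. How reads were counted and the strand setting are not given in the sources used here. Estimated counts were rounded to whole numbers, and the highest counts are deposited to 3 significant digits. In the deposited tables the end of a gene is given as the base after it, so ends are printed 1 base earlier. Partek's gene-specific test was replaced by edgeR 4.0.16 quasi-likelihood tests (R 4.3.3) with TMM scaling on the 19232 genes kept by filterByExpr, with Benjamini-Hochberg adjustment over all of them. The pipeline was tested on simulated data. Alternatives were DESeq2 1.42.0, limma 3.58.1 (log2 CPM, and voom with quality weights), library-size scaling, scaling on nuclear protein-coding genes, other filters, the replicate number as a block, and each tumor left out. A count of 3, taken as the floor, equals 0.213 to 0.285 CPM. p-values weigh the difference between groups against the spread between tumors, and floors cover counting error alone. The sample titles do not name the mouse of each tumor, and the tumors were treated as independent. Transcript lengths came from GENCODE vM39, matched by Ensembl gene ID, and promoters from RefSeq (GRCm38.p6). The rule fixed beforehand named *Pcbp1*, all mitochondrial members, members and listed genes called by edgeR, the nuclear subunit with the highest and lowest fold change of each complex, and the tissue-specific isoforms. All other genes named were chosen after values were seen. The members and gene lists were chosen with earlier results of these data known.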

Additional observations from a re-analysis of the deposited data

Results flagged for a closer look

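Of 142 sets of values examined within a genotype, 19 contained a tumor at a distance from the rest. Chance would give about 7.10 if the sets were independent and normally distributed. Several sets hold the same genes, singly and in sums, so an excess over chance cannot be read from these numbers. Knockout tumor 1 was the lowest of 6 in *mt-Nd1* at 1083 CPM (nearest tumor 1387), *mt-Nd2* at 501 CPM (nearest 654), *mt-Nd4* at 754 CPM (nearest 951) and *mt-Nd5* at 1318 CPM (nearest 1617). The summed mitochondrial complex I genes were at 3969.99 CPM in that tumor (nearest 5111), and the mitochondrial members took 1.23% of its counts (nearest 1.47%). Its median log2 CPM of mitochondrial members relative to the control mean was -0.0129 (nearest 0.30), and its markers of dividing cells summed to 604 CPM (nearest 804). It was the highest of its group in *Cox8b* at 0.683 CPM (nearest 0.232) and *Sdhaf4* at 5.72 CPM (nearest 4.12).

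Knockout tumor 2 was highest in *Ndufa4l2* at 2.02 CPM (nearest 1.35). Control tumor 2 was highest in *Atp5j2* at 8.16 CPM (nearest 5.92) and *Cox6b2* at 3.60 CPM (nearest 0.638). Control tumor 3 was lowest in the share of nuclear members at 0.126% of counts (nearest 0.141%) and in the nuclear complex IV sum at 198 CPM (nearest 231), and highest in *Rn18s-rs5* at 8.72% of counts (nearest 1.84%) and in adipocyte markers at 271 CPM (nearest 74.4). Skeletal muscle markers were highest in control tumor 5 at 265 CPM (nearest 46.0), and basal markers in control tumor 1 at 1246 CPM (nearest 455).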

How the results depend on the processing

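All 13 mitochondrial genes were positive under every alternative, 0 members were called lower under any of them, and the median log2 fold change stayed between 0.23 and 0.43 for mitochondrial genes and between 0.15 and 0.20 for nuclear subunits. The count of members called higher was 1 with edgeR, 10 with DESeq2 and 14 with limma-voom and quality weights, and 0 to 5 with each tumor left out; the cause was not tested. *Sdhb* turned negative with limma on log2(CPM + 0.1) at -0.00412 and with the replicate block at -0.00857, and ran from -0.107 to 0.0918 with each tumor left out, and *Uqcrc2* ran from -0.0822 to 0.0366. The 36 genes followed through the alternatives, which are not all of those named in the report, gave 720 values over 20 settings, of which 663 kept direction and side of the threshold, 21 lost and 27 gained a call, and 9 turned sign. In the replicate block fit of 10 tumors, 1 member was called higher. Correlations of tumors with the same number were 0.0193, 0.184, -0.0849, -0.111 and 0.217. Those of tumors with different numbers ran from -0.358 to 0.359. No sign of pairing by number was seen, though so few values cannot exclude it. The tumors were few, the differences small against their spread, and the read assignment of overlapping genes uncertain.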
